A study of Homo sapiens with 192 samples.

Results

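Condensin and cohesin are the ring-shaped protein complexes that fold and hold chromosomes, and the expression of their subunit genes was followed in 4 human colorectal cancer (CRC) cell lines. The 10 genes were chosen by name and matched through their Ensembl identifiers. They are the 8 condensin genes SMC2, SMC4, NCAPD2, NCAPG, NCAPH, NCAPD3, NCAPG2 and NCAPH2 and the 2 cohesin ATPase genes SMC1A and SMC3, out of 58243 genes listed for each library. HT29, LS513, HCT116 and LS174T are established lines derived from colorectal tumors. Each was grown as a 2D layer and under 3D growth, with 3 libraries per condition, which gave 8 groups and 24 libraries of poly(A)-selected messenger RNA. No group carried a drug or a genetic change. HCT116 was cultured in McCoy medium and the other lines in DMEM, so that line and medium cannot be told apart. 3D culture is described in the methods as spheroids in low-attachment plates, for growth assays, and a line is a single cell population with no stroma. The labels do not say whether the 3 libraries of a group came from separate cultures, so the p-values may measure technical spread only.

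In each complex a pair of SMC (structural maintenance of chromosomes) ATPases forms a ring that a kleisin subunit closes and HEAT-repeat subunits regulate. SMC2 and SMC4 are shared by condensin I, which adds the kleisin NCAPH with NCAPD2 and NCAPG, and by condensin II, which adds the kleisin NCAPH2 with NCAPD3 and NCAPG2. Condensin I reaches the chromosomes once the nuclear envelope breaks down in mitosis, whereas condensin II is nuclear throughout the cell cycle. SMC1A and SMC3 form cohesin with the kleisin RAD21 and STAG1 or STAG2. Cohesin holds sister chromatids together from S phase until mitosis and extrudes chromatin loops during interphase. Many genes of chromosome condensation are transcribed mainly in dividing cells.

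Each of the 10 encodes a protein, and positions follow GENCODE 29 on GRCh38. SMC2 (ENSG00000136824) lies at chr9:104094260-104141417 and SMC4 (ENSG00000113810) at chr3:160399274-160434962, both on the plus strand. Among the condensin I genes, NCAPD2 (ENSG00000010292) lies at chr12:6493356-6531955, NCAPG (ENSG00000109805) at chr4:17810902-17844862 and NCAPH (ENSG00000121152) at chr2:96335787-96373845, all on the plus strand. Among the condensin II genes, NCAPD3 (ENSG00000151503) lies at chr11:134150119-134225454 and NCAPG2 (ENSG00000146918) at chr7:158631311-158704829 on the minus strand, and NCAPH2 (ENSG00000025770) at chr22:50508216-50523472 on the plus strand. SMC1A (ENSG00000072501) lies at chrX:53374149-53422728 on the minus strand and SMC3 (ENSG00000108055) at chr10:110567691-110604636 on the plus strand.

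Promoter windows from 250 bases before to 50 bases after each start were taken from RefSeq (GRCh38.p14) and were matched for 9 of the 10 genes. NCAPH2 was not among them. The 9 genes were searched on both strands for elements known from cell cycle promoters. TTTGAA, the core of the cell cycle homology region, was found in 7 of them, against 18.2% of all 27305 genes in the table. CCAAT, the letters bound by NF-Y, was found in 3 of 9 against 39.7% of all genes. The E2F-type letters TTCCCGC were found in 3 of 9 against 7.82%, and TTGGCGC in 0 of 9 against 3.66%. A match is only a match of letters. The 6 windows below are shown because they hold these elements in genes from each complex. They run 5′ to 3′ along the gene's strand up to the last base before the start, and the capitals mark the elements, as written above or, for a match on the opposite strand, as the reverse complement.
NCAPG, chr4:17810859-17810978, plus strand: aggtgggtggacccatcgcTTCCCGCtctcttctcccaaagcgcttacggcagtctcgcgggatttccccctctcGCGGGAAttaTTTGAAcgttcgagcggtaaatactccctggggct
SMC4, chr3:160399530-160399649, plus strand: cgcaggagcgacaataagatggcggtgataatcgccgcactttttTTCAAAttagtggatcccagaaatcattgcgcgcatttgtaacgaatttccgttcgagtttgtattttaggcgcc
NCAPD2, chr12:6493852-6494101, plus strand: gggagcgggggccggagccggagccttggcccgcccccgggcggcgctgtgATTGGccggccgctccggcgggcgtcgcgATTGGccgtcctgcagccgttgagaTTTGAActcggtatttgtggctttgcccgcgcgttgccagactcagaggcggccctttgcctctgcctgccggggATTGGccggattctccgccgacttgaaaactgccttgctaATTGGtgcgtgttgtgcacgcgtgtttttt
NCAPH, chr2:96335646-96335765, plus strand: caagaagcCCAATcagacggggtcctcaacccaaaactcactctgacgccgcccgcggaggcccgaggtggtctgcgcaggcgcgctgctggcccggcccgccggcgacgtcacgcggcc
SMC1A, chrX:53422655-53422774, minus strand: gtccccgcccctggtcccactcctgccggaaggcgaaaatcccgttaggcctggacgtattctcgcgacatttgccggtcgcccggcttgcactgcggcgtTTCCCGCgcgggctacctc
SMC3, chr10:110567445-110567694, plus strand: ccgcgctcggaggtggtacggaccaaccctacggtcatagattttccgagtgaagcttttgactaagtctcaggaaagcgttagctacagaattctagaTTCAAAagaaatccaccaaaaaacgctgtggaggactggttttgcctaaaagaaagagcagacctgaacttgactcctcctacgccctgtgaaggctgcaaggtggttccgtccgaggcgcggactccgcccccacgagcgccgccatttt
In NCAPG the letters of the cell cycle homology region began at position -35, counted from -1 at the base before the start, and the E2F-type letters lay at position -101 and, on the opposite strand, at position -45. The NCAPD2 window held the NF-Y letters on the opposite strand at 4 positions and those of the homology region at position -145. In the 120 bases shown for NCAPH the NF-Y letters at position -112 were the one match, and the SMC1A window held the E2F-type letters at position -19. In SMC4 and SMC3 the letters of the homology region lay on the opposite strand at positions -75 and -151.

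The libraries held 18723942 to 34277421 counts (median 30777613), fewest in HT29 2D replicate 3. CPM is the count of a gene scaled to a fixed library total, and the levels below are given after TMM normalization. A floor of 3 counts is between 0.0875 and 0.160 CPM on the raw library totals, and it covers counting error only. All 10 genes lay far above it, with 887 to 13305 counts in every library. Colorectal epithelium markers were expressed in every group, 8 of 8 above the floor in HT29, LS513 and LS174T and 7 of 8 in HCT116. Their summed level ran from 2850 CPM in LS174T to 17057 CPM in HT29. Fibroblast markers summed to at most 22.1 CPM and endothelial markers to at most 2.38 CPM. Leukocyte markers summed to at most 4.59 CPM except in HT29, where they summed to 1319 to 1431 CPM in 2D and 2420 to 2672 CPM in 3D, nearly all of it LYZ, with CD3E at 0 in every library. The part of that difference in the results below was not tested. In bulk RNA, fewer dividing cells and less RNA per cell cannot be told apart. The library kit keeps strand, but the strand option of the counting is not given in the sources used here. Of the exonic bases, 33.1% of NCAPG are shared with LCORL on the opposite strand, 25.6% of SMC4 with TRIM59 and IFT80, 8.89% of NCAPD3, 7.49% of NCAPD2 and 0.372% of SMC1A with other genes, while SMC2, NCAPH, NCAPG2, NCAPH2 and SMC3 share none.

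The members were compared first by level. Exon length here counts every annotated exonic base of a gene, 8457 for SMC4 and 3159 for NCAPH2. Their longest transcripts have 5471 and 2077 bases, so the order of the genes can change with the length used. Per kilobase of exon, the highest level among the 10 in 2D was that of NCAPD2, a HEAT-repeat subunit of condensin I, in HT29 (56.6 ± 4.1 CPM per kb; SD, n = 3), LS174T (51.5 ± 2.3) and LS513 (47.2 ± 3.0). In HCT116 it was SMC3, with 42.2 ± 3.1 CPM per kb, beside 39.5 ± 3.5 for NCAPH and 37.2 ± 1.1 for NCAPD2. NCAPH2 came next there with 35.8 ± 3.3 CPM per kb. SMC2 had the lowest level in HCT116, with 8.95 ± 1.39 CPM per kb, and was lowest with NCAPH2 in HT29, with 17.2 ± 0.36 and 17.1 ± 0.13. In LS174T the 7 genes other than NCAPD2, SMC3 and SMC4 lay between 20.1 and 25.2 CPM per kb.

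The lines differed in 2D for all 10 genes by edgeR's quasi-likelihood test with Benjamini-Hochberg adjustment over 19387 genes, where 91.7% of all genes tested were called, so that the count says little about these genes. SMC3 differed least, with an adjusted p of 0.0298 in 2D and 0.109 in 3D. Its call in 2D was kept in 9 of 24 fits that left out 1 library, with adjusted p between 0.00652 and 0.107, and every other member was called in all 24. The fits that lost it were those without any one library of HT29, 5 of the 6 libraries of HCT116 (all but 2D replicate 3) and 4 of the 6 of LS513 (all but 3D replicates 2 and 3).

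Of all genes, the share called between 2 lines in 2D was 60.6% for HT29 against LS513, 68.8% for HT29 against HCT116, 64.6% for HT29 against LS174T, 68.3% for LS513 against HCT116, 57.6% for LS513 against LS174T and 68.3% for HCT116 against LS174T. SMC2 differed widely. Its 2D level was 140 ± 8.4 CPM in LS513, 130.0 ± 5.9 in LS174T, 111 ± 2.3 in HT29 and 57.9 ± 9.0 in HCT116. HCT116 lay below each of the other lines, and the log2 difference of LS513 minus HCT116 was 1.27 ± 0.14 (SE, adjusted p = 3.53e-08). LS513 and LS174T did not differ beyond their spread (adjusted p = 0.550), nor did LS174T and HT29 (adjusted p = 0.168). SMC4, its partner, followed a like order with 334 ± 33 CPM in LS513, 289 ± 8.9 in HT29, 220 ± 14 in LS174T and 147 ± 19 in HCT116. LS513 and HT29 did not differ for SMC4 (adjusted p = 0.185), while HT29 lay above LS174T (adjusted p = 0.0122) and LS174T above HCT116 (adjusted p = 0.000586).

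Condensin I genes did not share an order. NCAPD2 ran from 367 ± 27 CPM in HT29 through 334 ± 15 in LS174T and 306 ± 20 in LS513 to 241 ± 7.3 in HCT116, and among neighbours only LS513 and HCT116 differed (adjusted p = 0.00156). NCAPG, the second HEAT-repeat subunit, was highest in HCT116 with 147 ± 18 CPM, above LS513 and HT29 with 117 ± 9.4 and 117 ± 0.84 (adjusted p = 0.0162 and 0.0139), and LS174T had 100.4 ± 10.5. The kleisin NCAPH was higher in LS513 (140 ± 5.7 CPM) and HCT116 (129 ± 11) than in HT29 (96.1 ± 5.4) and LS174T (70.8 ± 2.5). LS513 and HCT116 did not differ for NCAPH (adjusted p = 0.225), and each of the next steps did (adjusted p = 6.00e-05 and 4.82e-05).

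Condensin II genes split in opposite directions between lines. NCAPD3 was highest in HT29, with 279 ± 5.6 CPM against 195 ± 3.1 in LS174T, 167 ± 22 in HCT116 and 142 ± 1.8 in LS513, and HT29 differed from its neighbour (adjusted p = 0.000147). NCAPG2 was also highest in HT29, with 199 ± 6.2 CPM against 170.1 ± 2.6 in LS174T, 162 ± 2.7 in LS513 and 140.4 ± 7.0 in HCT116. NCAPH2, the kleisin, was lowest in HT29 with 53.9 ± 0.42 CPM and highest in HCT116 with 113 ± 10.5, and LS174T and LS513 had 69.6 ± 8.7 and 84.8 ± 2.1. HT29 minus HCT116 was -1.07 ± 0.14 for NCAPH2 (SE, adjusted p = 3.02e-07) and 0.74 ± 0.10 for NCAPD3 (adjusted p = 1.25e-06), both as log2 differences in 2D.

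Of the cohesin ATPases, SMC1A stood out in HT29, where it had 456 ± 11 CPM, against 292 ± 12 in LS513, 264 ± 8.8 in LS174T and 242 ± 35 in HCT116. HT29 exceeded its neighbour LS513 (adjusted p = 0.000324), and the other neighbours did not differ (adjusted p = 0.378 and 0.442). SMC3 ran from 180.5 ± 13 CPM in HCT116 through 162 ± 5.0 in HT29 and 155 ± 8.6 in LS174T to 139 ± 1.6 in LS513. No pair of neighbours differed for SMC3 (adjusted p = 0.242, 0.632 and 0.264), and HCT116 differed from LS513 (adjusted p = 0.00593).

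**Figure D1:**
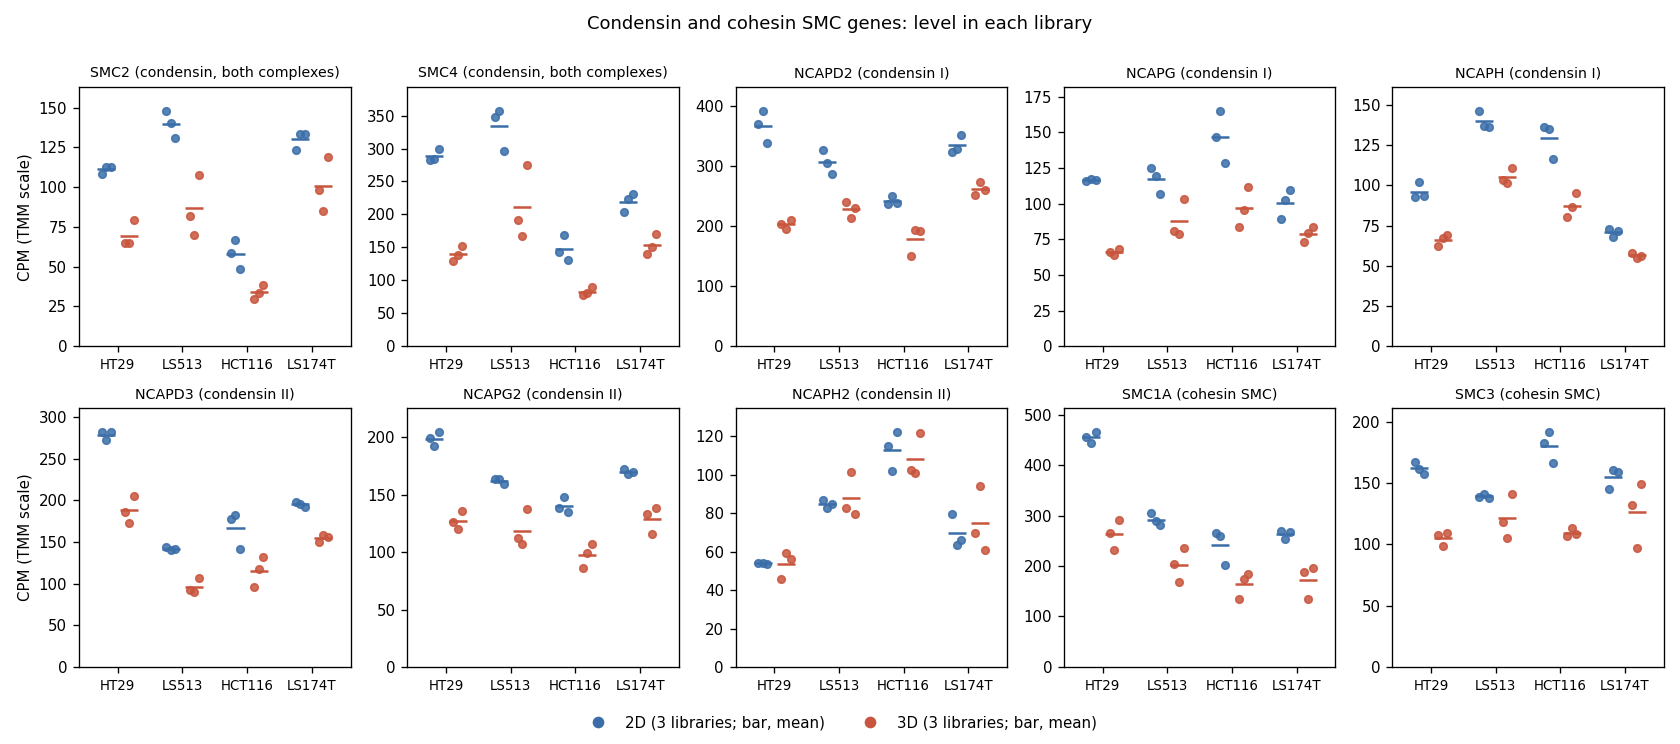
Level of each gene in each library, in CPM on the TMM scale (vertical axes start at 0 and differ between genes), by line on the horizontal axis, with 2D in blue and 3D in red; points are libraries and bars the means of 3. NCAPH2 is the gene whose 2D and 3D libraries overlap in all 4 lines, while the 3D libraries of SMC4, NCAPD2, NCAPG, NCAPH, NCAPD3, NCAPG2 and SMC1A lie below the 2D libraries in every line.

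The main comparison asked how growth in 3D changed expression in each line. Most condensin and cohesin genes were lower in 3D. NCAPH2 passed in no line, SMC3 did not pass in LS513 and LS174T, and SMC2 did not pass in LS174T. In HT29, 9 of the 10 genes fell, where 19.6% of all genes tested were called lower in 3D, and in HCT116 9 of 10 fell against 12.3% of all genes. In LS513 8 of 10 fell against 9.90%, and in LS174T 7 of 10 fell against 9.15%. None of the 10 rose in any line, where 21.1% (HT29), 13.7% (LS513), 16.8% (HCT116) and 13.1% (LS174T) of all genes did, and 7 fell in all 4 lines, against 2.46% of all genes. The median log2 fold change of the 10 genes was -0.66, -0.44, -0.56 and -0.35 (HT29, LS513, HCT116, LS174T), beside 0.00018, 0, 0.011 and 0.016 over all genes tested. Every 3D library lay below every 2D library for 9, 8, 9 and 8 of the 10 genes in these lines, against 25.6%, 20.0%, 17.6% and 17.6% of all genes.

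SMC4, one of the ATPases shared by both condensins, fell in all 4 lines. In HT29 the 2D libraries of SMC4 had 283, 285 and 299 CPM and the 3D libraries 130.0, 138 and 152 CPM. The 3D libraries lay far below the 2D libraries, and SMC4 fell with a log2 fold change of -1.05 ± 0.14 (SE, adjusted p = 2.97e-06), a level 51.6% lower and the largest fall among the 10 genes in HT29. In HCT116 the 2D libraries had 143, 169 and 130.3 CPM and the 3D libraries 77.4, 81.4 and 89.5 CPM, a log2 fold change of -0.83 ± 0.14 (adjusted p = 8.47e-05). In LS513 the 2D libraries had 348, 357 and 297 CPM and the 3D libraries 191, 167 and 274 CPM. LS513 3D replicate 3 stood closest to the 2D libraries, and the log2 fold change was -0.66 ± 0.13 (adjusted p = 0.000840). In LS174T SMC4 went from 204, 224 and 231 CPM in 2D to 139, 150.1 and 170.4 CPM in 3D, with a log2 fold change of -0.52 ± 0.13 (adjusted p = 0.00842).

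SMC2 fell in 3 lines. In LS513 its 2D libraries had 148.0, 140.6 and 131 CPM and its 3D libraries 82.0, 70.2 and 108 CPM, and in HCT116 they had 58.4, 66.6 and 48.6 against 29.5, 33.7 and 38.6 CPM. In HT29 the 2D libraries had 109, 113 and 112 CPM and the 3D libraries 64.6, 64.6 and 79.4 CPM. The groups were apart in each of these lines. The log2 fold changes were -0.68 ± 0.14 in HT29 (adjusted p = 0.00066), -0.69 ± 0.14 in LS513 (adjusted p = 0.000992) and -0.77 ± 0.14 in HCT116 (adjusted p = 0.000366). In LS174T the 2D libraries had 123, 134 and 133 CPM and the 3D libraries 98.3, 84.8 and 119 CPM, and although they did not overlap the log2 fold change of -0.37 ± 0.14 did not pass the test (adjusted p = 0.0635). It passed in 1 of the 6 fits that left out a library of the line. The value was -0.51 without LS174T 3D replicate 3 (adjusted p = 0.0136) and -0.25 without 3D replicate 2 (adjusted p = 0.298).

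All 3 genes particular to condensin I fell in every line. NCAPD2 went from 371, 392 and 339 CPM in HT29 2D to 203, 196 and 210.1 CPM in 3D. Its HT29 groups were widely apart, with a log2 fold change of -0.86 ± 0.09 (SE, adjusted p = 1.77e-07). In LS513 NCAPD2 had 326, 305 and 287 CPM in 2D and 239.9, 214 and 231 CPM in 3D, in HCT116 236, 249.6 and 238 against 149.8, 194 and 193 CPM, and in LS174T 324, 328 and 351 against 252, 274 and 259.6 CPM. These 3 lines changed by a like amount, with log2 fold changes of -0.42 ± 0.09 (adjusted p = 0.00124), -0.43 ± 0.09 (adjusted p = 0.000852) and -0.35 ± 0.09 (adjusted p = 0.00718).

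NCAPG, whose promoter window holds both the TTTGAA and the TTCCCGC letters, had 116, 118 and 117 CPM in HT29 2D and 65.9, 63.7 and 68.4 CPM in 3D. Replicates agreed closely here and the log2 fold change was -0.82 ± 0.12 (adjusted p = 9.89e-06). In HCT116 it was -0.60 ± 0.12 (adjusted p = 0.000475), from 147, 165 and 129 CPM to 83.5, 95.8 and 112 CPM. In LS513 NCAPG went from 125, 119.7 and 107 CPM to 81.0, 79.1 and 103 CPM, with the highest 3D library just under the lowest 2D library. The log2 fold change was -0.42 ± 0.12 (adjusted p = 0.0106), and the call was lost without LS513 3D replicate 1, 3D replicate 2 or 2D replicate 1 (adjusted p = 0.0617, 0.0732 and 0.0574). In LS174T NCAPG went from 89.0, 103 and 109.6 CPM to 72.9, 79.3 and 83.6 CPM, with a log2 fold change of -0.35 ± 0.12 (adjusted p = 0.0320). That call was lost without LS174T 3D replicate 1, 3D replicate 2, 2D replicate 2 or 2D replicate 3, with adjusted p between 0.0815 and 0.141.

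The condensin I kleisin NCAPH had the smallest errors of the 10 genes. It went from 92.6, 102 and 93.4 CPM to 62.4, 67.1 and 69.2 CPM in HT29 and from 146, 137 and 136 CPM to 103, 102 and 111 CPM in LS513. In HCT116 it went from 136, 135 and 116 CPM to 80.4, 86.8 and 95.2 CPM, and in LS174T from 72.8, 68.0 and 71.6 CPM to 57.8, 55.1 and 56.3 CPM. No library of 3D reached the 2D range of its line. The log2 fold changes were -0.54, -0.41, -0.56 and -0.33 in that order, each with an SE of about 0.081 to 0.082 (adjusted p = 2.15e-05, 0.000683, 2.06e-05 and 0.00663).

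Condensin II fell in part. NCAPD3 had 282, 272 and 282 CPM in HT29 2D and 186, 173 and 205 CPM in 3D, and in LS513 it had 144, 140.7 and 141 CPM against 91.8, 89.3 and 107 CPM. The log2 fold changes were -0.57 ± 0.10 (SE, adjusted p = 0.000178) and -0.56 ± 0.10 (adjusted p = 0.000386), and HCT116 gave -0.54 ± 0.10 (adjusted p = 0.000511), from 178, 182 and 141 CPM to 95.4, 118 and 132 CPM. In LS174T NCAPD3 went from 198, 195 and 192 CPM to 150.0, 158 and 155.5 CPM, with tight and separate groups. There the log2 fold change was -0.34 ± 0.10 (adjusted p = 0.0239), and the call held in 1 of the 6 fits that left out a library. It was kept without LS174T 3D replicate 3, and any other of the 6 libraries left out gave adjusted p between 0.0551 and 0.0688.

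NCAPG2 fell in every line and in every fit that left out a library. It went from 199, 193 and 205 CPM in 2D to 126, 119.7 and 136 CPM in 3D in HT29, a log2 fold change of -0.65 ± 0.09 (SE, adjusted p = 1.38e-05). In LS513 it went from 164, 164 and 159 CPM to 112, 107 and 137 CPM, in HCT116 from 138, 148 and 135 CPM to 85.8, 99.2 and 107 CPM, and in LS174T from 173, 168 and 170.1 CPM to 133, 116 and 138 CPM. The groups were apart in all of them. The log2 fold changes were -0.45 ± 0.09 (adjusted p = 0.00122), -0.53 ± 0.09 (adjusted p = 0.000228) and -0.40 ± 0.09 (adjusted p = 0.00451).

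NCAPH2, the condensin II kleisin, passed in no line. In HT29 it had 54.4, 53.9 and 53.5 CPM in 2D and 45.8, 59.4 and 56.3 CPM in 3D, and in LS513 86.9, 82.8 and 84.9 CPM against 83.0, 102 and 79.7 CPM. In HCT116 it had 115, 102 and 123 CPM in 2D and 102, 101 and 122 CPM in 3D, and in LS174T 79.6, 63.3 and 66.0 CPM against 69.8, 94.3 and 60.6 CPM. The 2D and 3D libraries overlapped in each line. The log2 fold changes were -0.0036 (95% confidence interval -0.29 to 0.28), 0.05 (-0.23 to 0.34), -0.06 (-0.34 to 0.22) and 0.10 (-0.18 to 0.39), with adjusted p of 1, 0.847, 0.792 and 0.625. A fall of the size estimated for NCAPD3 in HT29 (-0.57) lies outside the HT29 interval of this fit. That interval leaves in the trend on transcript length and GC content described next.

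NCAPH2 also differs from the other members in its transcript, and short, GC-rich transcripts as a class were higher in 3D. Its longest transcript has 2077 bases at 62.2% GC, which puts it in bin 2 of 5 equal bins of the tested genes by length and in bin 5 by GC. In HT29 the genes of GC bin 5 had a median log2 fold change of 0.26 and those of bin 1 -0.21, and length bin 1, the shortest, had 0.20 and bin 5 -0.23. The same medians in HCT116 were 0.26, -0.19, 0.16 and -0.13. SMC2, SMC4, NCAPD2, NCAPD3 and SMC1A are in length bin 5, and SMC2, SMC4, NCAPG, NCAPG2 and SMC3 in GC bin 1. When each library's trend on length and GC content was removed, NCAPH2 gave -0.35 in HT29 (adjusted p = 0.00802), -0.20 in LS513 (adjusted p = 0.143), -0.37 in HCT116 (adjusted p = 0.00535) and -0.19 in LS174T (adjusted p = 0.190). Under that setting the 9 other genes were still called lower in HT29 and HCT116, and 8 of them in LS513. In LS174T 4 of them were (SMC4, NCAPH, NCAPG2 and SMC1A). Of 19322 genes tested under it, 4029 (HT29), 2714 (LS513), 3371 (HCT116) and 2252 (LS174T) were called lower. The median of the 10 genes was -0.45, -0.40, -0.48 and -0.20 in HT29, LS513, HCT116 and LS174T. SMC2 in HT29 kept its call with a smaller value (-0.30, adjusted p = 0.00166), as did SMC4 (-0.69, adjusted p = 7.58e-07) and SMC3 (-0.39, adjusted p = 0.000136), while in LS174T NCAPD2, NCAPG and NCAPD3 lost theirs (adjusted p = 0.0759, 0.139 and 0.188). Whether NCAPH2 is called in HT29 and HCT116 thus depends on whether this trend is left in.

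**Figure D2:**
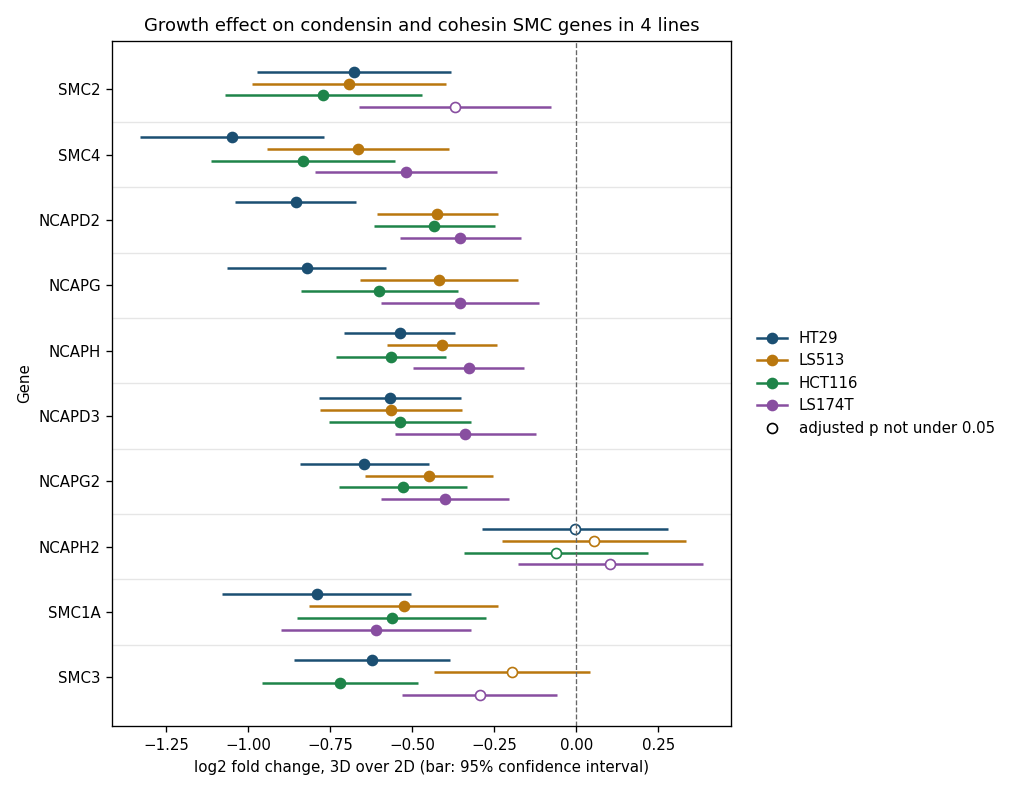
Log2 fold change of 3D over 2D (horizontal axis) for each gene (vertical axis) in the 4 lines, with 95% confidence intervals from the edgeR fit; filled circles have an adjusted p under 0.05. All intervals of NCAPH2 cross 0. HT29 lies furthest to the left for SMC4, NCAPD2, NCAPG, NCAPG2, SMC1A and, barely, NCAPD3.

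Of the cohesin ATPases, SMC1A fell in all 4 lines. In HT29 it went from 456, 445 and 467 CPM in 2D to 266, 233 and 292 CPM in 3D, a log2 fold change of -0.79 ± 0.14 (SE, adjusted p = 0.000113). In LS174T the 2D libraries had 270.1, 254 and 267 CPM and the 3D libraries 188, 134 and 196 CPM. The log2 fold change was -0.61 ± 0.14 (adjusted p = 0.00358), and -0.45 without 3D replicate 2 (adjusted p = 0.0335). In HCT116 it went from 266, 259 and 202 CPM to 135, 173 and 184 CPM (-0.56 ± 0.14, adjusted p = 0.00403), and in LS513 from 306, 289.7 and 282 CPM to 205, 169 and 235 CPM (-0.53 ± 0.14, adjusted p = 0.0076). The LS513 call was lost without 3D replicate 2 (adjusted p = 0.0701).

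SMC3 fell in HT29 and HCT116. It went from 168, 162 and 158 CPM to 107, 99.1 and 109.7 CPM in HT29 (-0.62 ± 0.12, adjusted p = 0.000185) and from 183, 192 and 166 CPM to 107, 113 and 109 CPM in HCT116 (-0.72 ± 0.12, adjusted p = 6.92e-05). In LS513 the 2D libraries had 139, 141 and 138 CPM and the 3D libraries 118, 105 and 141 CPM, so that the groups overlapped, and the log2 fold change of -0.20 did not pass (95% confidence interval -0.43 to 0.04, adjusted p = 0.237). In LS174T they had 145, 161 and 159 against 132, 97.4 and 149.5 CPM, again with overlap, and -0.29 did not pass (-0.53 to -0.06, adjusted p = 0.0676). It passed in 1 of the 6 fits that left out a library of the line. The value was -0.43 without LS174T 3D replicate 3 (adjusted p = 0.00724) and -0.13 without 3D replicate 2 (adjusted p = 0.446).

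The effect of growth was then compared between lines by an interaction test. It was called for NCAPD2 alone of the 10 genes (adjusted p = 0.0191), where 17.1% of all genes tested were called. HT29 changed more than LS513 by -0.43 ± 0.13 on the log2 scale (SE, adjusted p = 0.0250), more than HCT116 by -0.42 ± 0.13 (adjusted p = 0.0400) and more than LS174T by -0.50 ± 0.13 (adjusted p = 0.0157), where 12.1%, 7.76% and 6.65% of all genes were called for these pairs. None of the 10 genes was called between the other lines, where 4.34% (LS513 against HCT116), 3.62% (LS513 against LS174T) and 4.75% (HCT116 against LS174T) of all genes were. The call was made in 15 of 24 fits that left out 1 library, with adjusted p between 0.00898 and 0.136, and in 4 of 6 other settings. It was lost under the replicate block (adjusted p = 0.163) and with no filter on low counts (adjusted p = 0.155). It was also lost without any of the 3 libraries of HT29 3D, HT29 2D replicates 1 and 2, HCT116 3D replicate 2, HCT116 2D replicate 3 or LS513 3D replicates 1 and 3. SMC3 came next, with an adjusted p of 0.0528. It was called in 3 of 6 other settings, with no filter (adjusted p = 0.0279), by DESeq2 (adjusted p = 0.0226) and with the length and GC trend removed (adjusted p = 0.00266). It was also called in 4 of 24 fits that left out 1 library, those without LS174T 3D replicate 2 (adjusted p = 0.00174), LS174T 3D replicate 3 (0.0425), LS513 3D replicate 2 (0.0303) and HCT116 2D replicate 3 (0.0439). Its growth effect in LS513 minus that in HCT116 was 0.52 ± 0.16 (adjusted p = 0.0703). For the other 8 genes the adjusted p lay between 0.144 and 0.923, and for NCAPG, with -0.82 in HT29 and -0.35 in LS174T, the difference of -0.47 ± 0.16 did not pass (adjusted p = 0.0926).

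The balance between subunits was followed as ratios of CPM per kilobase within each library, which are given as descriptions. Whether a ratio lies above or below 1 can depend on the exon length used. The mean of the condensin I genes over the mean of the condensin II genes was 1.42, 1.55 and 1.35 in HT29 2D and 1.21, 1.16 and 1.13 in HT29 3D. It was 1.80, 1.74 and 1.65 against 1.62, 1.40 and 1.60 in LS513, and 1.43, 1.54 and 1.34 against 1.17, 1.28 and 1.19 in HCT116. In LS174T it was 1.26, 1.41 and 1.48 against 1.24, 1.18 and 1.32. The ratio was therefore lower in every 3D library than in every 2D library of HT29, LS513 and HCT116, with overlap in LS174T. NCAPH2, which passed in no line, enters the lower term. In LS513 the condensin I genes gave log2 fold changes of -0.42 to -0.41, beside -0.56 for NCAPD3 and -0.45 for NCAPG2. In HCT116 they gave -0.60 to -0.43, beside -0.54 and -0.53. The lower ratio in LS513 and HCT116 thus does not mean that condensin I fell more than NCAPD3 and NCAPG2. SMC2 over SMC4 was 0.503 ± 0.013 (SD, n = 3) in HT29 2D and 0.649 ± 0.035 in 3D, 0.550 ± 0.032 and 0.541 ± 0.025 in LS513, 0.513 ± 0.023 and 0.534 ± 0.033 in HCT116, and 0.775 ± 0.018 and 0.858 ± 0.103 in LS174T. LS174T thus stood apart from the other lines in 2D, and HT29 is the line in which the ratio of these partners changed with growth beyond its range. SMC3 over SMC1A was 0.873 ± 0.039 in HT29 2D, 1.17 ± 0.047 in LS513, 1.44 ± 0.12 in LS174T and 1.84 ± 0.17 in HCT116, with ranges that do not overlap. In 3D it was 0.985 ± 0.062, 1.47 ± 0.056, 1.79 ± 0.078 and 1.66 ± 0.25 in the same order of lines, and the ranges of 2D and 3D were apart in HT29, LS513 and LS174T.

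**Figure D3:**
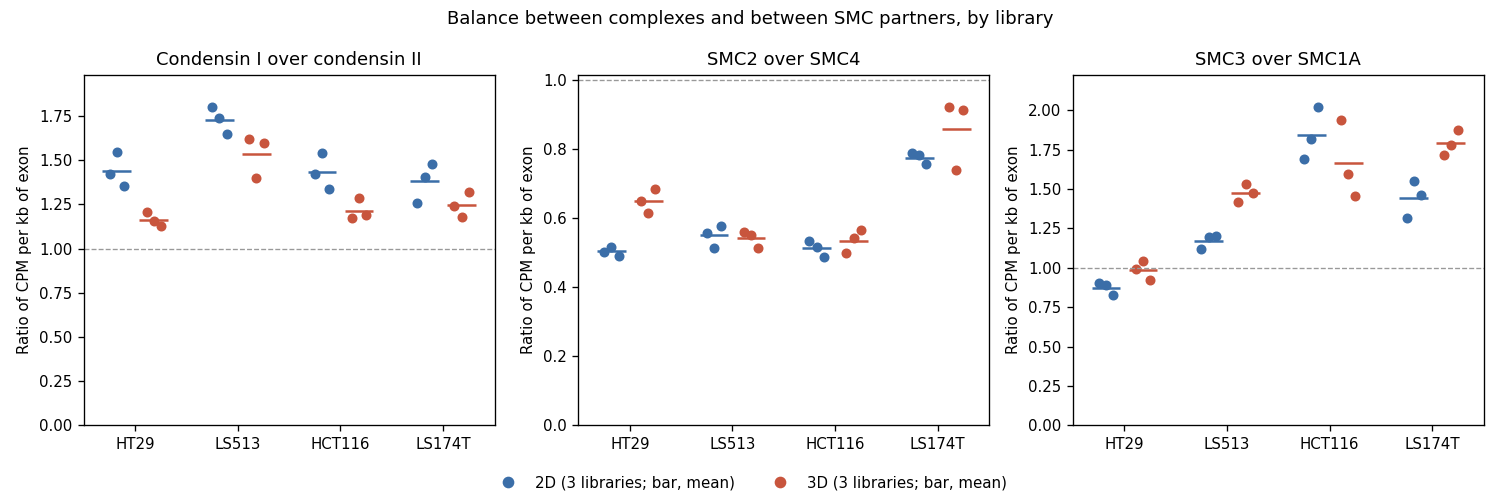
Ratios of CPM per kilobase of exon (vertical axes start at 0) in each library, by line, for the mean of condensin I genes over the mean of condensin II genes, SMC2 over SMC4 and SMC3 over SMC1A; points are libraries, bars means of 3, blue 2D, red 3D, and the dashed line marks a ratio of 1. The condensin I to II ratio, with NCAPH2 in its lower term, is lower in 3D in HT29, LS513 and HCT116. SMC3 over SMC1A ranges from 0.873 in HT29 2D to 1.84 in HCT116 2D.

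The libraries of a line were also compared with each other, after the mean of the line was subtracted from log2(CPM + 1) of each gene. Over the 24 libraries, the 36 pairs among the 9 genes other than NCAPH2 had Pearson correlations between 0.815 (NCAPD2 with SMC3) and 0.979 (SMC4 with NCAPG). NCAPH2 had correlations between -0.33 (with SMC3) and 0.01 (with NCAPH). These values are descriptions, since the points share libraries, depth and the difference between 2D and 3D. Like values were common: 2.81% of 14606 genes with at least 1 CPM had a correlation above 0.9 with the condensin profile. The 5 genes closest to the mean profile of the 8 condensin genes were NCBP1 (0.985), NUP43 (0.983), IPO11 (0.983), HSPH1 (0.978) and CHORDC1 (0.977), known for the nuclear cap-binding complex, the nuclear pore, nuclear import, and heat shock co-chaperone activity of the last pair. The 5 closest to the cohesin ATPases were TUBGCP3 (0.985), ARHGAP11A (0.983), SMC6 (0.982), CAND1 (0.982) and ENSG00000277726 (0.981), with 6.03% of the genes above 0.9. ARHGAP11A has a near-identical copy in the genome, so that its count is uncertain.

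**Figure D4:**
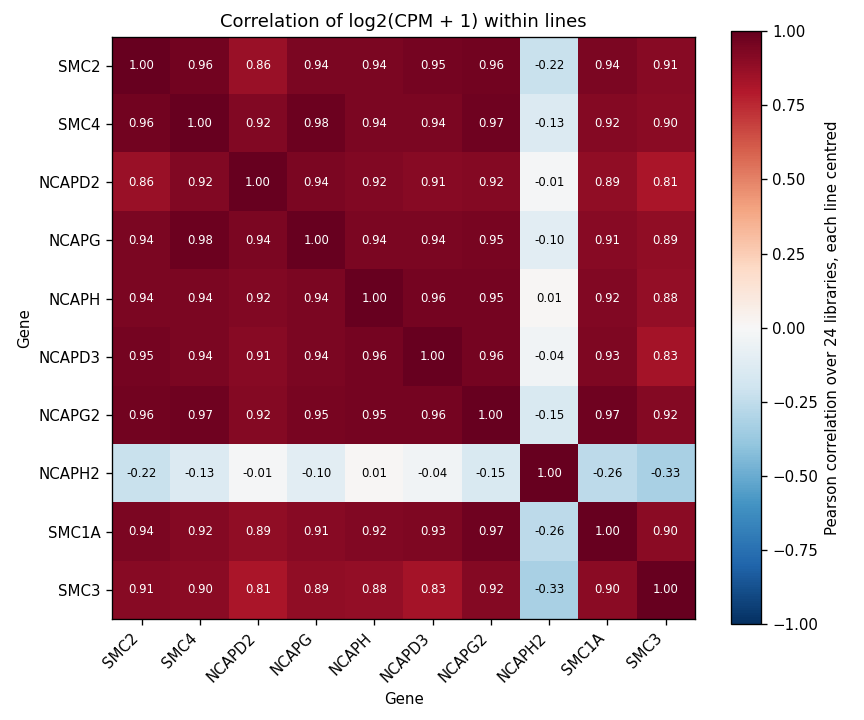
Pearson correlation of log2(CPM + 1) between each pair of the 10 genes (both axes) over 24 libraries after the mean of each line was subtracted, from -1 in blue to 1 in red. NCAPH2 forms the pale row and column, between -0.33 and 0.01, and the other pairs lie between 0.815 and 0.979.

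The counts for related genes below stand beside the shares of all genes called lower, 19.6%, 9.90%, 12.3% and 9.15%, and higher, 21.1%, 13.7%, 16.8% and 13.1%, in HT29, LS513, HCT116 and LS174T, and the lists were not tested against these shares or between lines. STAG1, which binds the kleisin, fell in all 4 lines, with log2 fold changes of -0.75 ± 0.16 in HT29 (SE, adjusted p = 0.000784), -0.54 ± 0.16 in LS513 (adjusted p = 0.0155), -0.67 ± 0.16 in HCT116 (adjusted p = 0.00291) and -0.45 ± 0.16 in LS174T (adjusted p = 0.0425). STAG2, its paralog, gave -0.38, -0.15, -0.38 and -0.17 and did not pass in any of them (adjusted p from 0.0794 to 0.580). The kleisin RAD21 fell in HT29, from 1436 ± 24 to 978 ± 76 CPM (-0.55 ± 0.13, adjusted p = 0.00198), and in HCT116 (-0.42 ± 0.13, adjusted p = 0.0208), and gave -0.32 in LS513 and -0.25 in LS174T (adjusted p = 0.0843 and 0.175). RAD21 was far higher in HT29 than in the other lines, whose 2D means were 292 to 462 CPM.

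Among 10 genes for loading, release and acetylation of cohesin, 8 fell and 2 rose in HT29, while 3 (LS513), 7 (HCT116) and 2 (LS174T) fell elsewhere, beside 19.6%, 9.90%, 12.3% and 9.15% of all genes lower and 21.1% higher in HT29, with list medians of -0.54, -0.30, -0.46 and -0.32. ESCO2, which acetylates SMC3 in S phase, fell in all lines, by a log2 fold change of -0.84 ± 0.20 (HT29), -0.78 ± 0.19 (LS513), -0.87 ± 0.19 (HCT116) and -0.81 ± 0.19 (LS174T; adjusted p = 0.00195, 0.00477, 0.00168 and 0.00516). The loader NIPBL fell in HT29 (-0.68 ± 0.20, adjusted p = 0.00912), whereas its partner MAU2 rose there (0.26 ± 0.10, adjusted p = 0.0415), as did the SMC3 deacetylase HDAC8 (0.31 ± 0.10, adjusted p = 0.0178). Of 6 genes for protection and cleavage of cohesin, 4, 3, 3 and 2 fell in HT29, LS513, HCT116 and LS174T. SGO2, a protector of centromeric cohesin, fell in HT29 (-0.99 ± 0.19, adjusted p = 0.000252), LS513 and HCT116. Separase, ESPL1, which cuts RAD21 at anaphase, fell in every line, with -0.96 ± 0.09 in HT29 (adjusted p = 2.53e-08) and -0.29 ± 0.09 in LS513 (adjusted p = 0.0162), and its growth effect differed between lines (interaction, adjusted p = 0.00143). The counterexample was PPP2R5B, a regulatory subunit of the phosphatase PP2A, which rose in all 4 lines, in HT29 from 3.19 ± 0.40 to 7.28 ± 0.90 CPM (1.18 ± 0.15, adjusted p = 1.84e-06) and in LS513 from 11.6 ± 1.7 to 28.6 ± 3.9 CPM (1.30 ± 0.13, adjusted p = 1.65e-07).

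The third SMC complex is formed by SMC5 and SMC6. SMC6 fell in HT29 (-0.75 ± 0.14, adjusted p = 0.000211), HCT116 (-0.78 ± 0.14, adjusted p = 0.000241) and LS174T (-0.39 ± 0.14, adjusted p = 0.0489), and gave -0.36 in LS513 (adjusted p = 0.0606). SMC5 passed in HT29 (-0.58 ± 0.21, adjusted p = 0.0291) and gave -0.40 to -0.49 in the other lines. The ligase subunit NSMCE2 rose in HT29 (0.50 ± 0.13, adjusted p = 0.00395), HCT116 and LS174T. SMCHD1, an SMC-like protein of chromatin silencing, fell in all 4 lines, with -0.93 ± 0.18 in HT29 (adjusted p = 0.000348). Of the 7 genes of this list, 3, 1, 3 and 2 fell and 3, 0, 2 and 2 rose in HT29, LS513, HCT116 and LS174T, beside 19.6%, 9.90%, 12.3% and 9.15% of all genes lower and 21.1%, 13.7%, 16.8% and 13.1% higher.

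Of 15 genes that act on mitotic chromosomes with condensin, 13 (HT29), 8 (LS513), 9 (HCT116) and 3 (LS174T) fell, beside 19.6%, 9.90%, 12.3% and 9.15% of all genes, none rose, and the list medians were -0.55, -0.36, -0.38 and -0.17. TOP2A, the topoisomerase that untangles mitotic chromosomes, fell in all lines, from 729 to 345 CPM in HT29 (-1.08 ± 0.18, adjusted p = 5.10e-05) and by -0.75, -0.99 and -0.58 in LS513, HCT116 and LS174T. MKI67, which coats mitotic chromosomes, fell in HT29 (-1.21 ± 0.18, adjusted p = 2.07e-05) and LS174T (-0.92 ± 0.18, adjusted p = 0.00118), with -0.48 and -0.45 in LS513 and HCT116 (adjusted p = 0.0560 and 0.0643). Of the mitotic kinases, CDK1, AURKA and TTK fell in HT29, LS513 and HCT116 but did not pass in LS174T, and PLK1 fell in HT29 and HCT116. CCNB1, the cyclin of CDK1, fell in HT29 and LS513. AURKB passed in HT29 only, with -0.49 ± 0.09 (adjusted p = 0.000132), and its growth effect differed between lines (interaction, adjusted p = 0.0460).

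**Figure D5:**
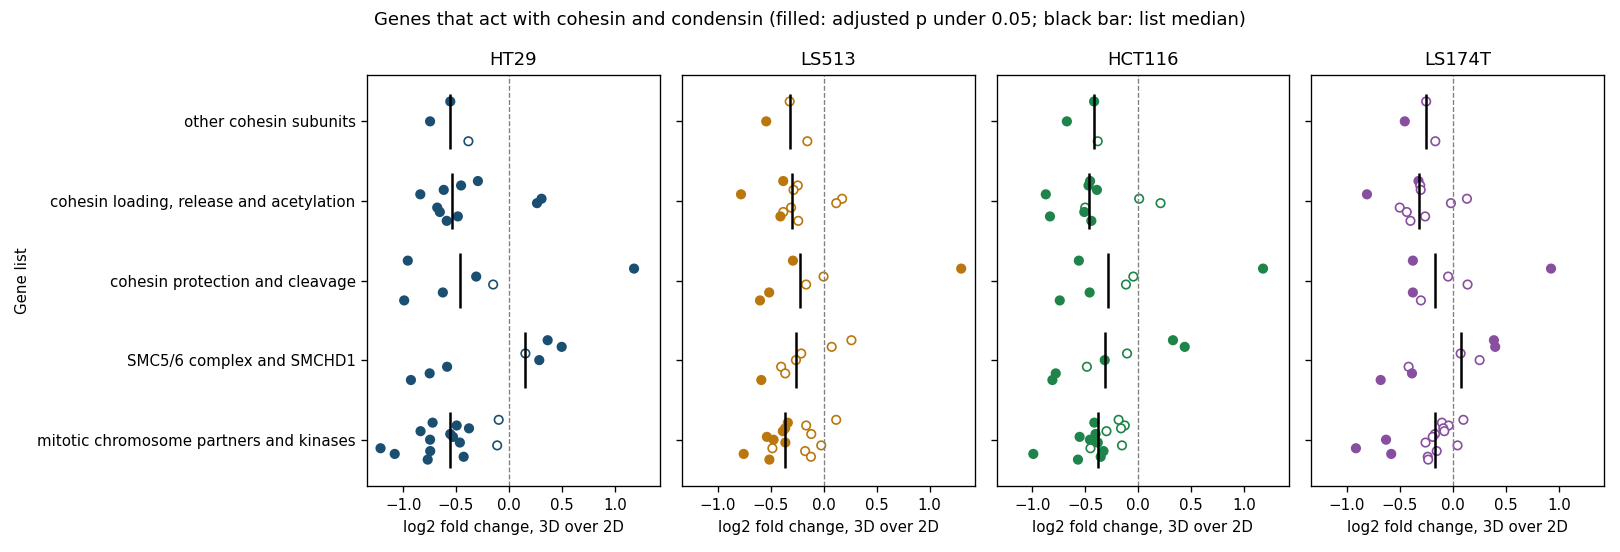
Log2 fold change of 3D over 2D (horizontal axes) of each gene in 5 lists (vertical axis), with 1 panel per line; filled points have an adjusted p under 0.05 and black bars are list medians. Medians of the chromosome partners run from -0.55 in HT29 to -0.17 in LS174T, and the point near 1 in each panel is PPP2R5B.

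The Seurat cell cycle lists were counted without SMC4 and NCAPD2, which belong to the G2/M list. Of 52 G2/M genes, 46 (HT29), 34 (LS513), 33 (HCT116) and 16 (LS174T) fell, with medians of -0.67, -0.45, -0.43 and -0.21. Of 43 S phase genes, 22, 34, 34 and 22 fell, with medians of -0.28, -0.46, -0.51 and -0.29. The medians of the 10 members were -0.66, -0.44, -0.56 and -0.35 in the same order. They lay between the medians of the lists in HT29, above both in LS513 and below both in HCT116 and LS174T. The part of cell cycle phase in the changes of the 10 genes was not tested.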

How the data were processed

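Messenger RNA was purified with oligo(dT), and stranded libraries were made from the 4 lines. The authors deposited raw counts per Ensembl gene from Trim Galore 0.4.1, STAR and HTSeq 0.5.3. The submitters' processing notes name hg19, while the study's methods name Ensembl 91, and coordinates here are those of GENCODE 29 on GRCh38. Counts of the technical replicates (191 files) were summed per library. Genes were filtered with filterByExpr (19387 kept), scaled by TMM and fitted with edgeR 4.0.16 (robust quasi-likelihood, 8 group coefficients over 24 libraries, R 4.3.3). A call is a Benjamini-Hochberg adjusted p under 0.05 over all tested genes, with no fold cutoff. On simulated counts for HT29 (19387 genes), 81 of 100 genes changed by 1 on the log2 scale and 26 of 100 changed by 0.5 were called. Only 200 genes were changed there, against 7887 called in HT29. The adjusted cutoff was therefore stricter than in the data, and these shares do not describe the members. The members and lists were chosen with earlier results of these data known. All 10 members and the listed genes were eligible to be named, and the closest profiles were the 5 highest correlations. Alternatives were DESeq2 1.42.0, its size factors, no filter, fold cutoffs, a replicate block, fits of 1 line, a length and GC correction chosen after seeing the data, and leaving out each library.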

Additional observations from a re-analysis of the deposited data

Results flagged for a closer look

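The growth effect of NCAPD2, the HEAT-repeat subunit of condensin I, differed between lines by a test of the difference itself (edgeR interaction term over 4 lines, adjusted p = 0.0191), with log2 fold changes of -0.86, -0.42, -0.43 and -0.35 (HT29, LS513, HCT116, LS174T). Every 3D library lay below every 2D library in each line, so that the difference is one of size. The call was kept in 15 of 24 fits that left out 1 library, with adjusted p from 0.00898 to 0.136. The adjusted p was 0.163 under the replicate block and 0.155 with no filter on low counts, where SMC3 was called (adjusted p = 0.0279).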

How the results depend on the processing

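The counts of members called lower were 9, 8, 9 and 7 in HT29, LS513, HCT116 and LS174T, beside 19.6%, 9.90%, 12.3% and 9.15% of all genes. With the fold cutoffs of the study they were 4 in LS513 and 2 in LS174T, and all genes were not counted there. With the length and GC trend removed (chosen after seeing the data) LS174T had 4, beside 2252 of 19322 genes called lower. With the 6 libraries of the line alone LS174T also had 4, beside 549 of 16035 genes called lower. The interaction, called for 1 member and for 17.1% of all genes, was called for 2 members by the DESeq2 test and 3 with the trend removed. With no filter it was called for SMC3 in place of NCAPD2. Under the replicate block it was called for 0 members, and 9 differed between lines in 2D. In LS174T 5 were called under the block, beside 1355 of 19387 genes called lower. For the interaction and the lines in 2D, all genes were not counted under these other settings. By number, same-numbered samples of a line had correlations of deviations between -0.22 and 0.25, and differently numbered ones between -0.33 and 0.29. Deviations within groups of 3 libraries are bound to each other, so these values cannot show whether a number marks a shared culture. Leaving out 1 library gave 9 to 9 (HT29), 6 to 8 (LS513), 9 to 9 (HCT116), 5 to 9 (LS174T), 0 to 2 for the interaction and 9 to 10 for lines in 2D. The background moved as well, in LS174T from 685 of 19822 genes called lower (without 3D replicate 2) to 2826 of 19825 (without 3D replicate 3). Of 280 single-gene values under other settings, 267 kept the call or its absence, 9 lost the call, 4 gained it and no called value reversed. NCAPH2, not called in the main fit, changed sign in LS513 and LS174T with the trend removed. Of 240 with a library left out, the counts were 225, 13 and 2, with no called value reversed. Values of NCAPH2 in these fits ran from -0.03 to 0.13 in HT29, -0.07 to 0.12 in LS513 and -0.08 to 0.23 in LS174T. The cause was not tested. Depth was no limit, since every member had at least 887 counts in every library.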

Other observations

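Of 4 meiotic cohesin genes, SMC1B and RAD21L1 were too low to be tested. SMC1B, the meiotic partner of SMC3, had at most 0.181 CPM and was at 0 in 15 libraries. RAD21L1 was at 0 in 18 libraries and reached 0.431 CPM in HCT116, and STAG3 reached 0.461 CPM. REC8, the meiotic kleisin, had 1.32 to 1.48 CPM in HCT116 2D and 0.869 to 8.35 CPM in HCT116 3D, where its libraries overlapped and the edgeR quasi-likelihood test called a log2 fold change of 1.56 ± 0.44 (SE, adjusted p = 0.00935). REC8 gave 0.73, 1.01 and -0.15 in HT29, LS513 and LS174T and did not pass there (adjusted p = 0.325, 0.157 and 0.888).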
